A study of Mus musculus with 20 samples.

Results

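The 9 genes described here act at the receiving end of the Notch pathway or modify its receptors: the target repressors Hes1, Hey1, Hey2 and Heyl, the nuclear DNA-binding protein Rbpj and its coactivator Maml1, and the Fringe enzymes Lfng, Mfng and Rfng. They were chosen by gene symbol, and all 9 are listed among the 55866 genes of the count table. The libraries came from female C57BL/6J mice with an HA-tagged Rpl22 allele and a tamoxifen-inducible Cre under the Cdh5 promoter (Rpl22HA/HA x Cdh5CreERT2, called RiboTag EC), so that endothelial ribosomes carry the tag. Every mouse, control or treated, received 75 mg/kg tamoxifen for 5 days from 3 weeks of age and an orthotopic Py8119 mammary tumor at 8 weeks, and was then given control mouse IgG or 25 mg/kg of the Notch4 antibody 6-3-A6 for 10 days. From each of 5 tumors per treatment the whole homogenate (input) and the anti-HA immunoprecipitate (IP) were sequenced, which gives 4 groups of 5 libraries. Treatment started at about 30 mm3 of tumor volume in the labels and 50 mm3 in the series design. For the 6-3-A6 libraries the description lines name the opposite fraction from the titles, source names and cell types; the titles were followed here.

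When a Notch receptor is activated, its intracellular domain is cut free, enters the nucleus and joins Rbpj and a Mastermind-like protein such as Maml1 on DNA. Hes and Hey genes, which encode basic helix-loop-helix repressors, are the best known targets of that complex, and in blood vessels they act in arterial fate and in the choice between tip and stalk cells. The Fringe enzymes work earlier, in the Golgi, where they add N-acetylglucosamine to O-fucose on the receptor's extracellular repeats and so shift its preference between Delta-like and Jagged ligands.

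RefSeq promoter windows (GRCm38.p6) were at hand for 5 of the 9 genes, Hey2, Rbpj, Maml1, Lfng and Rfng; Hes1, Hey1, Heyl and Mfng had no entry. The 250 bases before the start site of Lfng (chr5:140607091-140607340, plus strand) and Rfng (chr11:120784205-120784454, minus strand) are shown because both Fringe genes were lower in the IP, as described further on. Capitals mark matches to GTGGGAA, a core form of the Rbpj recognition sequence, and to CACGTG, an E box of the kind bound by helix-loop-helix proteins, each searched on both strands.
Lfng: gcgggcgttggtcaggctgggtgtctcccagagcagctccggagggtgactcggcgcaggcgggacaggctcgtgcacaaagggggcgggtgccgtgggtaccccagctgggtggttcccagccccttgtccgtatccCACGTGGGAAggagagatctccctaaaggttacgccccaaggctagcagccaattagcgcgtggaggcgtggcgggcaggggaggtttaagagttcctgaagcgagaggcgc
Rfng: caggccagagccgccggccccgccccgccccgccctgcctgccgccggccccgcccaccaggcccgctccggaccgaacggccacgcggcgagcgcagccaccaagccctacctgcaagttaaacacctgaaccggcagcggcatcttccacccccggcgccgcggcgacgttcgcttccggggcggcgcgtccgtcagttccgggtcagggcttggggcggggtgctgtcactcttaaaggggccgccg

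In the Lfng window, with positions counted back from the start site, GTGGGAA began at -109 and CACGTG at -112, so that the matches overlap in 1 run of capitals. No match to either was found in the Rfng window, nor in those of Rbpj or Maml1, while Hey2 held 1 match to GTGGGAA, read as TTCCCAC and beginning at -207. Of 32851 promoter windows of this length, 5.42% held GTGGGAA and 6.02% held CACGTG. These are matches of letters only.

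Between 11881214 and 26728205 reads per library were assigned to genes, so that 3 counts, the limit that a count of 0 allows by counting error alone, correspond to between 0.104 and 0.315 CPM (counts scaled to the TMM-adjusted library total). By mitochondrial share 1 library stood apart: the 6-3-A6 input library of replicate 4 had 38.2% of its counts on mitochondrial genes, against 6.9% to 17.2% in the other inputs and 0.758% to 11.3% in the IP. All 17 endothelial marker genes tested were higher in the IP (median log2 difference 4.25), and their summed level was 217 to 338 CPM in input and 1286 to 7406 CPM in the IP libraries. In 6-3-A6, where titles and description lines differ, it was 217 to 324 CPM in libraries titled input and 1286 to 6465 CPM in those titled IP. The enrichment in these libraries thus goes with the titles. Of the defining markers, Itgam (macrophages) and Alas2 (erythroid cells) had 0 counts in all 20 libraries. Overlap of these genes with others was not checked, so a count of 0 is not read as absence of the transcript. An endothelial score, the mean log2 CPM of the endothelial markers less that of macrophage, fibroblast and epithelial markers, ran from -3.53 to -1.78 in input and from 0.0837 to 3.42 in the IP, so that the purity of the IP differed widely between tumors. The tumor of 6-3-A6 replicate 5 had the highest summed macrophage markers, at 15810 CPM in input and 9623 CPM in the IP. Its lymphoid markers summed to 251.6 and 138.8 CPM, against at most 110.3 CPM in other inputs and 35.52 CPM in other IP libraries. The study kept 6 of the 10 IP libraries, control IgG 2, 4 and 5 and 6-3-A6 1, 3 and 4. It left the other 4 out as outliers after a principal component analysis in which the treatments were poorly resolved. The paper reports a clearer separation of the treatments once they were removed.

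**Figure D1:**
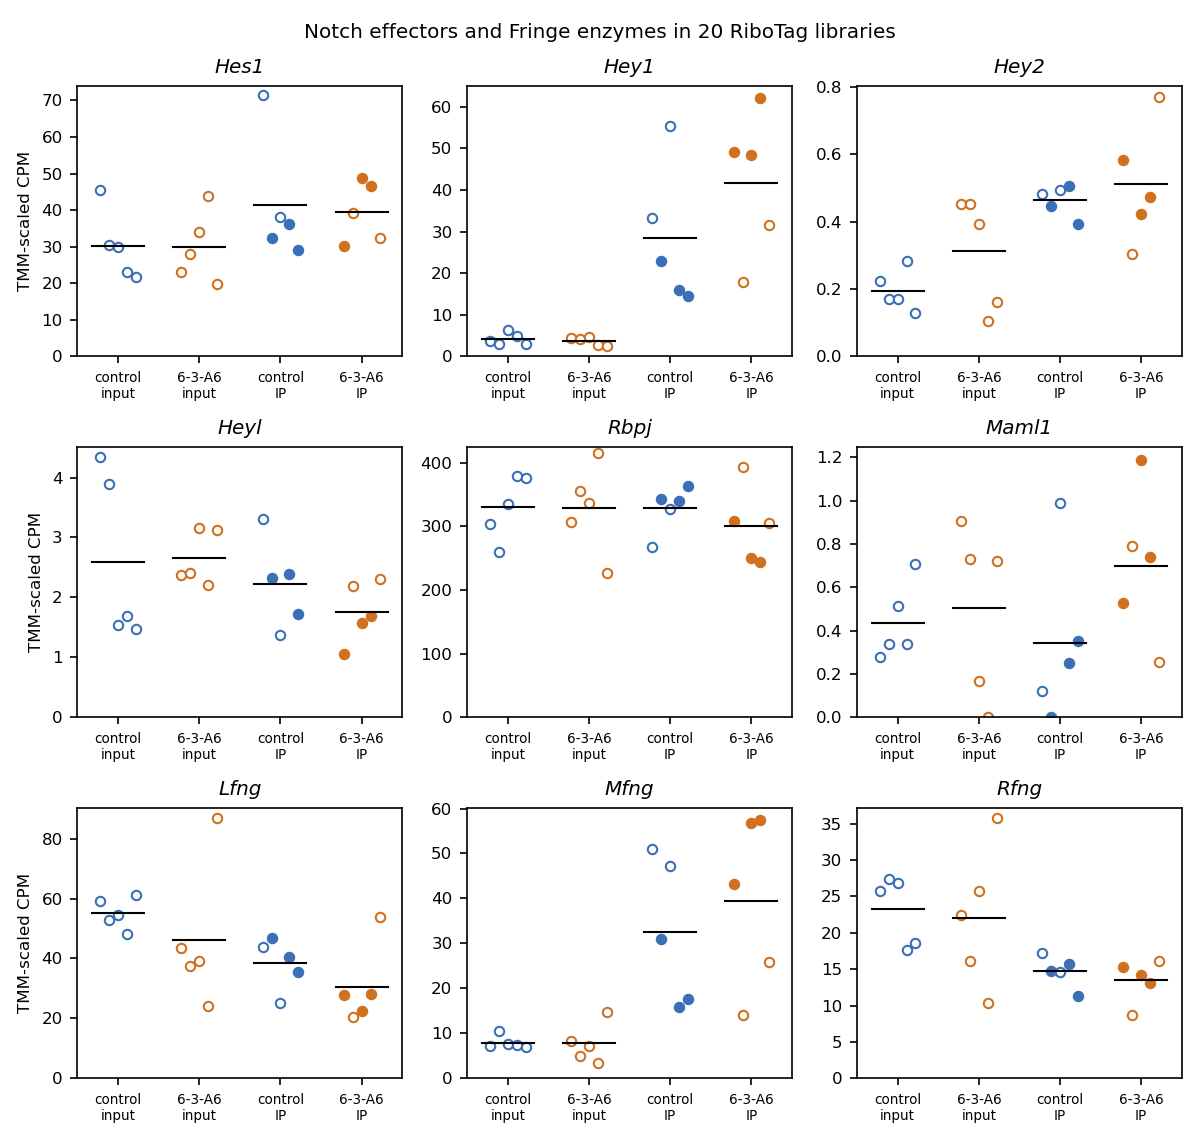
Each panel plots 1 gene in TMM-scaled CPM (linear axis from 0) by group, with 1 point per library and a line at the group mean; filled points are the 6 IP libraries kept by the study. Hey1 and Mfng stand far higher in the IP than in input, without overlap of the fractions for Hey1 alone. Lfng and Rfng have lower means in the IP with overlapping ranges, and the ranges of Hes1, Heyl, Rbpj and Maml1 overlap widely.

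The levels of the 9 genes were set side by side per kilobase of annotated exon (GENCODE M21), since longer genes collect more reads. In the 10 IP libraries Rbpj was the most abundant at 24.6 ± 3.85 CPM per exonic kilobase (mean ± SD), followed by Hes1 at 19.9 ± 6.24, Lfng at 13.8 ± 4.55, Mfng at 12.7 ± 6.04, Hey1 at 10.8 ± 5.36 and Rfng at 5.67 ± 1.01. The middle of this order differed by treatment: in control IgG IP Lfng (15.3 ± 3.43) came before Mfng (11.5 ± 5.73) and Hey1 (8.71 ± 5.15), and in 6-3-A6 IP Mfng (13.9 ± 6.74) and Hey1 (12.8 ± 5.28) came before Lfng (12.2 ± 5.36; n = 5 each), all within their spread. The ranges of neighbours over the 10 libraries overlapped, and the order of a neighbouring pair held in 5 to 8 of the 10 libraries. Below them, without overlap, came Heyl at 0.39 ± 0.127 and then Hey2 at 0.106 ± 0.0269 CPM per exonic kilobase, the latter from only 5 to 15 reads per library. In the 10 input libraries the order changed: Rbpj (25.8 ± 4.46) was followed by Lfng (20.2 ± 6.77), Hes1 (14.7 ± 4.39), Rfng (9.11 ± 2.9), Mfng (2.76 ± 1.08), Hey1 (1.2 ± 0.359) and Heyl (0.513 ± 0.193 CPM per exonic kilobase). Rfng exceeded Mfng, and Mfng exceeded Hey1, in 10 of 10 input libraries, whereas in the IP Mfng and Hey1 both had higher means than Rfng. Each of the 9 genes was counted over its whole span, introns included. Per kilobase of that span Hes1 was the highest of the 9 in both fractions and Rbpj, whose span holds 191211 bases, had rank 6 in the IP and rank 4 in input.

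Rbpj and Maml1 form the nuclear end of the pathway. Rbpj (chr5:53623494-53814704, GRCm39, plus strand) had between 227 and 415 CPM in input and between 243 and 393 CPM in the IP, and the fractions overlapped throughout. Its IP level exceeded the input of the same tumor in 4 of 10 tumors. Over 20 libraries the log2 difference was -0.08 ± 0.12 (SE) and did not pass the edgeR test (adjusted p = 0.628). A processed pseudogene, Rbpj-ps3, shares an identical run of 177 bases with Rbpj transcripts, and it had 0 counts in every library.

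Maml1 (chr11:50146461-50183138, minus strand) could barely be read from these counts. The gene Gm26542 on the opposite strand covers 90.5% of its span and leaves 3472 bases to Maml1 alone, and no source names how reads shared by overlapping genes were treated. Maml1 had 0 to 28 counts per library and Gm26542 1 to 18. The values given for Maml1 are those of the table and not a level of the transcript.

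Among the target repressors, Hey1 had the largest difference between IP and input of the 7 genes that could be tested. Hey1 (chr3:8728419-8732316, minus strand) encodes a repressor of the Hey subfamily that is expressed in arterial and sprouting endothelium. In input it had 3.68, 2.97, 6.23, 4.87 and 2.95 CPM in control IgG tumors 1 to 5, and 4.48, 4.11, 4.56, 2.84 and 2.41 CPM in 6-3-A6 tumors 1 to 5. The control IgG IP libraries held 33.3, 23.0, 55.4, 16.0 and 14.5 CPM and the 6-3-A6 IP libraries 49.0, 17.8, 48.5, 62.0 and 31.6 CPM. The lowest IP value was more than the highest input value, and the IP exceeded the input of the same tumor in 10 of 10 tumors, by 1.69 to 4.40 on the log2 scale. Over 20 libraries the log2 difference was 3.13 ± 0.28 (SE; edgeR quasi-likelihood test, adjusted p = 9.97e-09).

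That gain has to be read against the fraction as a whole. In this comparison 41.2% of the 13582 genes tested were called, 19.8% higher and 21.4% lower in the IP, and 4.48% were higher without overlap of the libraries. Of the 9 genes, 7 passed the filter on low counts (Hey2 and Maml1 did not) and 4 were called: Hey1 and Mfng higher, Lfng and Rfng lower. Hey1 was the only 1 of the 7 whose fractions did not overlap.

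Hes1 (chr16:29883202-29886614, plus strand), the most widely used Notch target, differed much less. Input libraries held 45.5, 30.3, 29.8, 23.2 and 21.8 CPM in control IgG and 23.1, 28.03, 34.0, 43.9 and 19.9 CPM in 6-3-A6 tumors. In the IP the values were 71.4, 32.4, 38.2, 36.3 and 29.0 CPM in control IgG and 30.2, 39.3, 48.7, 46.7 and 32.3 CPM in 6-3-A6 tumors. The fractions overlapped, yet the IP was above the input of the same tumor in 10 of 10 tumors, by 0.089 to 0.696 (median 0.449, log2). Over 20 libraries the log2 difference of 0.42 ± 0.18 (SE) missed the threshold (edgeR, adjusted p = 0.0673). With the tumor as a block, the fit that uses this pairing and calls 52.4% of all genes, Hes1 was called (0.43, adjusted p = 0.00112), and likewise without the 6-3-A6 tumor of replicate 4 (0.50, adjusted p = 0.0315), without the control IgG tumor of replicate 1 (0.38, adjusted p = 0.0481) with DESeq2 (0.44, adjusted p = 0.0455), without the filter on low counts (0.51, adjusted p = 0.0354) and without normalization factors (0.63, adjusted p = 0.00564).

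The remaining Hey genes were scarce. Heyl (chr4:123127349-123143668, plus strand), a Hey repressor known from vascular smooth muscle as well as endothelium, had 1.48 to 4.35 CPM in input and 1.05 to 3.32 CPM in the IP and was lower in the IP in 8 of 10 tumors. Its log2 difference over 20 libraries was -0.41 ± 0.24 (SE, edgeR adjusted p = 0.167). Of 8 mural markers tested, 2 were called higher and 1 lower in the IP. Hey2 (chr10:30708355-30718797, minus strand), an arterial repressor, had 1 to 13 counts per input library and 5 to 15 per IP library. It failed the filter on low counts. Its level was higher in the IP in 9 of 10 tumors, with a median log2 ratio of 0.908, and without the filter its log2 difference was 0.95 (edgeR, adjusted p = 0.0673), which did not pass.

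**Figure D2:**
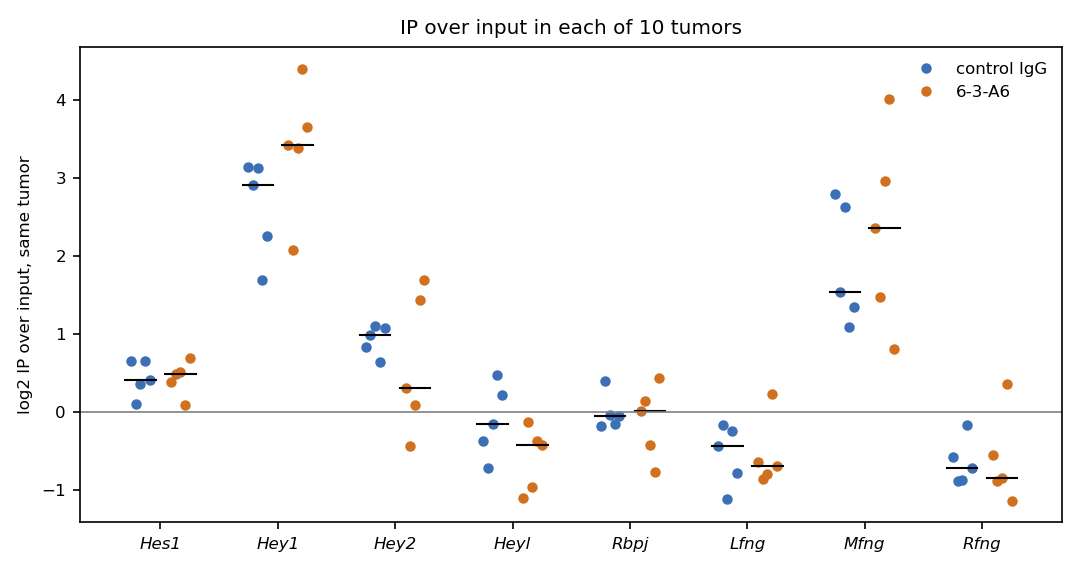
Points give the log2 ratio of the IP to the input library of the same tumor (vertical axis) for 8 genes, in blue for the 5 control IgG and in orange for the 5 6-3-A6 tumors, with a line at each median. Hey1, Mfng and Hes1 lie above 0 in all 10 tumors, and Lfng and Rfng below 0 in 9 of 10.

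The 3 Fringe enzymes split. Mfng (chr15:78640082-78657675, minus strand), manic fringe, had 7.30, 10.6, 7.59, 7.36 and 6.87 CPM in control IgG input and 8.33, 5.02, 7.21, 3.47 and 14.7 CPM in 6-3-A6 input. Its IP values were 51.1, 31.1, 47.1, 15.8 and 17.7 CPM in control IgG and 43.3, 14.1, 56.7, 57.4 and 25.8 CPM in 6-3-A6 tumors. All IP values but the lowest, that of 6-3-A6 replicate 2, lay above all input values, and each IP library exceeded its own input, by 0.805 to 4.01 on the log2 scale. Mfng was called at a log2 difference of 2.19 ± 0.29 (SE, edgeR adjusted p = 3.56e-06).

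Lfng, lunatic fringe (chr5:140593075-140601300, plus strand), went the other way. Its input values were 59.3, 52.7, 54.4, 48.2 and 61.1 CPM in control IgG and 43.4, 37.4, 39.0, 24.1 and 86.9 CPM in 6-3-A6 tumors. In the IP it had 43.9, 46.8, 25.0, 40.6 and 35.4 CPM in control IgG, all below the 5 control inputs, and 27.8, 20.5, 22.4, 28.3 and 53.8 CPM in 6-3-A6 tumors, which overlapped their inputs. In 9 of 10 tumors the IP was below its input, the exception being 6-3-A6 replicate 4, the tumor whose input had the high mitochondrial share. Over 20 libraries Lfng fell by 0.565 on the log2 scale (SE 0.20, edgeR adjusted p = 0.0267), and by 0.593 without that tumor (adjusted p = 0.018). The call was lost without the tumors of control IgG replicate 3 (adjusted p = 0.0612), control IgG replicate 5 (0.0569), 6-3-A6 replicate 1 (0.0533) or 6-3-A6 replicate 3 (0.0516), and without the filter on low counts (0.0698).

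Rfng, radical fringe (chr11:120671572-120675033, minus strand), was also lower in the IP. Control IgG inputs held 25.7, 27.5, 26.9, 17.7 and 18.7 CPM and their IP libraries 17.2, 14.8, 14.6, 15.7 and 11.3 CPM, without overlap. In 6-3-A6 tumors the inputs had 22.5, 16.1, 25.7, 10.3 and 35.8 CPM and the IP libraries 15.3, 8.70, 14.3, 13.2 and 16.2 CPM. Rfng fell by 0.692 on the log2 scale (SE 0.18, edgeR adjusted p = 0.00366), again in 9 of 10 tumors with 6-3-A6 replicate 4 as the exception. With the tumors of the 6 kept IP libraries alone neither Lfng (-0.43, adjusted p = 0.0614) nor Rfng (-0.54, adjusted p = 0.0724) passed the edgeR test. Markers of other cells were lower in the IP too, where 21.4% of all genes were: 8 of 12 macrophage, 3 of 5 lymphoid, 4 of 10 fibroblast and 2 of 6 epithelial markers were called. The summed level of the macrophage markers was 3463 to 9623 CPM in the IP against 6923 to 15810 CPM in input. Whether the levels of Lfng and Rfng follow the share of such cells was not tested. In these bulk samples fewer cells of a type and less RNA per cell cannot be told apart.

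The scale of the libraries bears on the smaller differences. Without normalization factors the median of all genes moved by 0.184 on the log2 scale and the share of calls that were higher in the IP went from 48.2% to 70.4%. Relative to that median Hey1 stood at 3.18, Mfng at 2.23, Hes1 at 0.495, Rbpj at -0.0211, Heyl at -0.377, Lfng at -0.531 and Rfng at -0.654. Under that setting the plain log2 difference of Rbpj was above 0 (0.112) and the call of Lfng was lost (adjusted p = 0.124).

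Within each treatment group, Hey1 and Mfng were higher in the IP in both. Within control IgG, where 11.4% of 14488 genes tested were called (8.28% higher and 3.1% lower), the 2 called among the 8 tested were Hey1 (log2 difference 2.78 ± 0.38, adjusted p = 2.23e-05) and Mfng (2.04 ± 0.41, adjusted p = 0.00176; SE, edgeR). Neither overlapped between the fractions there, as was so for 8.63% of all genes in that direction, and Lfng and Rfng were lower without overlap, as were 4.22%. Within 6-3-A6, where 26.3% of all genes were called (12.8% higher and 13.5% lower) and 8.41% were higher without overlap, as was Hey1, Hey1 (3.49 ± 0.39, adjusted p = 1.42e-06) and Mfng (2.35 ± 0.41, adjusted p = 0.000309) rose and Rfng fell by 0.709 (adjusted p = 0.0449). The call of Rfng was kept without the tumor of control IgG replicate 5 (adjusted p = 0.0498) or 6-3-A6 replicate 4 (0.0165), and lost without any other tumor (adjusted p of 0.0527 to 0.125), with DESeq2 size factors (0.0531) or without the filter (0.111). In control IgG Rfng did not pass with all tumors (adjusted p = 0.0988), and among the fits that left out 1 tumor it passed without that of 6-3-A6 replicate 4 (-0.64, adjusted p = 0.0449). With the tumor as a block 5 of the 8 were called in each treatment group, where the share of all genes called rose to 22.4% in control IgG and 38.3% in 6-3-A6: Hes1 passed in control IgG (0.43, adjusted p = 0.029) and 6-3-A6 (0.44, adjusted p = 0.0183), and so did Lfng (-0.55, adjusted p = 0.0405, and -0.56, adjusted p = 0.0253). Rfng passed under the block in control IgG (-0.65, adjusted p = 0.0277) and 6-3-A6 (-0.635, adjusted p = 0.0216).

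The difference between the treatment groups in the IP to input ratio was tested directly as an interaction. None of the 8 genes tested was called (0 of 14488 genes, 0% of all, by edgeR and by DESeq2; 125 genes had an unadjusted edgeR p under 0.05). For Hey1 the IP to input difference was larger in 6-3-A6 by 0.71 (95% interval -0.355 to 1.77) and for Mfng by 0.31 (-0.854 to 1.48), intervals that hold 0 as well as large differences.

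The comparison of treatments in the IP asks what the antibody changed in endothelial ribosome-bound mRNA, and its answer for these genes turned on which libraries were used. The study left libraries out as outliers after an analysis that showed how well the treatments separated. For that reason p-values over the 6 that were kept are not independent of that choice and describe these libraries. Over the 6 kept libraries, 4.61% of 13999 genes tested were called, 2.57% higher and 2.04% lower in 6-3-A6. Among the 8 Notch genes tested, 2 were called, both higher in 6-3-A6. Hey1 had 23.0, 16.0 and 14.5 CPM in control IgG and 49.0, 48.5 and 62.0 CPM in 6-3-A6, without overlap, a log2 difference of 1.55 ± 0.22 (SE, edgeR adjusted p = 0.0168). Mfng had 31.1, 15.8 and 17.7 CPM in control IgG and 43.3, 56.7 and 57.4 CPM in 6-3-A6, likewise without overlap, a log2 difference of 1.26 ± 0.26 (SE, edgeR adjusted p = 0.0269). Higher values without overlap were common, at 13.6% of all genes. The call of Hey1 was lost without 6-3-A6 replicate 3 (adjusted p = 0.0574), and that of Mfng without control IgG replicate 4 (0.0738), control IgG replicate 5 (0.0589), 6-3-A6 replicate 3 (0.0941) or 6-3-A6 replicate 4 (0.0849).

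The other 6 genes did not pass in the 6 libraries. Lfng was lower in every 6-3-A6 library (27.8, 22.4 and 28.3 CPM) than in every control library (46.8, 40.6 and 35.4 CPM), with a log2 difference of -0.67 ± 0.19 (SE, edgeR adjusted p = 0.0711), and DESeq2 called it (-0.66, adjusted p = 0.0379). Rbpj (-0.41, adjusted p = 0.29) and Heyl (-0.60, adjusted p = 0.365) were also lower without overlap, as were 10.7% of all genes, but did not pass. Hes1 had 32.4, 36.3 and 29.0 CPM in control IgG and 30.2, 48.7 and 46.7 CPM in 6-3-A6, which overlap, and a log2 difference of 0.335 ± 0.215 (SE, edgeR adjusted p = 0.439). The log2 difference of Rfng was 0.0063 (95% interval -0.434 to 0.446). Maml1 rested on 0, 4 and 9 counts in control IgG and 9, 28 and 14 in 6-3-A6 and met the filter through the 6-3-A6 libraries. Its log2 difference (1.97, edgeR adjusted p = 0.166, and 2.00, adjusted p = 0.0343, without the filter) thus rests on at most 9 reads in a control library and is not read as a difference.

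The 4 libraries left out mixed the levels of the kept groups. The control IgG libraries 1 and 3 had 33.3 and 55.4 CPM of Hey1 and 51.1 and 47.1 CPM of Mfng, all above the 3 kept controls. The 6-3-A6 libraries 2 and 5 had 17.8 and 31.6 CPM of Hey1 and 14.1 and 25.8 CPM of Mfng, all below the 3 kept 6-3-A6 libraries. With all 10 libraries 0 of 13602 genes were called (0%) by edgeR or DESeq2, and 292 had an unadjusted edgeR p under 0.05. The log2 difference of Hey1 was then 0.54 (95% interval -0.304 to 1.39) and that of Mfng 0.26 (-0.623 to 1.15), both with an adjusted p of 1 and groups that overlap. Lfng (-0.33, interval -0.925 to 0.261), Hes1 (-0.08, interval -0.617 to 0.451) and Rbpj (-0.14, interval -0.527 to 0.251) did not pass either. Leaving out 1 library moved Hey1 between 0.36, without 6-3-A6 replicate 4, and 0.93, without control IgG replicate 3, Mfng between 0.094, without 6-3-A6 replicate 4, and 0.479, without control IgG replicate 1, and Lfng between -0.218, without 6-3-A6 replicate 2, and -0.652, without 6-3-A6 replicate 5. The comparisons over 6 and 10 libraries share the 6 libraries.

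**Figure D3:**
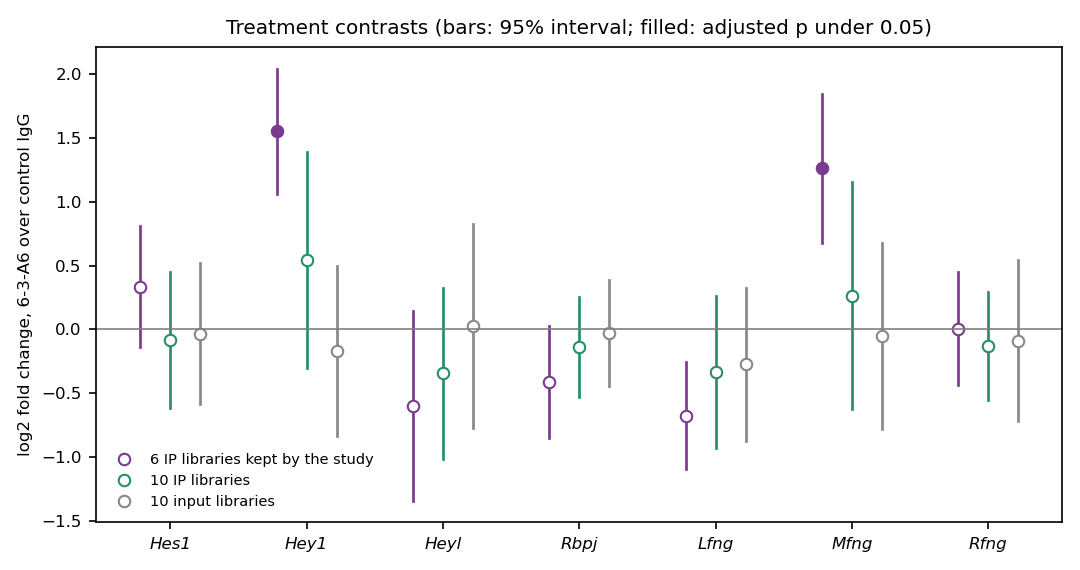
Log2 fold changes of 6-3-A6 over control IgG (vertical axis) with 95% intervals for the 7 genes that passed every filter, in the 6 kept IP libraries, all 10 IP libraries and the 10 input libraries; filled points have an adjusted p under 0.05. Filled points are seen for Hey1 and Mfng in the 6 libraries, and every interval over 10 libraries holds 0.

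In whole tumors no treatment difference was detected. Of 13683 genes tested in the 10 input libraries 0 (0%) were called by edgeR or DESeq2, and 180 had an unadjusted edgeR p under 0.05. Hey1 differed by -0.17 (95% interval -0.831 to 0.495), Mfng by -0.05 (-0.779 to 0.677) and Hes1 by -0.03 (-0.582 to 0.518) on the log2 scale. Lfng differed by -0.272 (interval -0.871 to 0.328), a value that became -0.619 without 6-3-A6 replicate 5 and -0.107 without 6-3-A6 replicate 4.

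The endothelial content of the IP moved with the kept groups. The kept control IgG libraries had endothelial scores of 1.43, 0.0837 and 1.17 and the kept 6-3-A6 libraries 2.78, 2.92 and 2.93, while the left-out control libraries had 2.6 and 3.42 and the left-out 6-3-A6 libraries 0.303 and 1.81. The kept groups thus differed without overlap (0.894 ± 0.715 against 2.88 ± 0.0827, mean ± SD, n = 3; exact permutation test, two-sided p = 0.1, the smallest that 3 against 3 allows). Over all 10 libraries the groups were closer (1.74 ± 1.3 against 2.15 ± 1.13, n = 5, exact permutation test, two-sided p = 0.587). In the 6 libraries 4 of 17 endothelial markers were called higher in 6-3-A6 (summed level 5113 to 6465 CPM against 1587 to 5164 CPM) and 7 of 12 macrophage markers lower (3463 to 4188 CPM against 7124 to 8158 CPM). Fibroblast markers fell in 2 of 10 and epithelial markers in 2 of 6, and 3 of 4 erythroid genes rose (29.6 to 544 CPM against 20.6 to 45.1 CPM). Of 8 mural markers 1 was called higher and 1 lower, and of 5 lymphoid markers 0 were called. Among all genes 2.57% were called higher and 2.04% lower. With the endothelial score as a covariate 0 genes were called by edgeR in the 6 libraries (689 with an unadjusted p under 0.05), and the log2 difference was 1.00 for Hey1 (adjusted p = 0.833) and 0.0724 for Mfng (adjusted p = 0.984). That of Lfng was -0.79, of Rbpj -0.43, of Heyl -0.43, of Hes1 0.56 and of Rfng 0.35 (adjusted p of 0.833 to 0.939). Since the scores of the kept groups did not overlap, treatment and endothelial content cannot be told apart in them.

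Within the 10 IP libraries the dependence on endothelial content was tested as a slope, with treatment as a further term. In this fit 3.76% of 13602 genes were called, 3.43% with a positive slope and 0.331% with a negative one, and 2 of the 7 Notch genes were among them. Hey1 rose by 0.58 ± 0.08 (SE) in log2 CPM per unit of score (edgeR, adjusted p = 0.00356) and Mfng by 0.64 ± 0.09 (adjusted p = 0.00402). Both calls held when any 1 of the 10 libraries was left out, although the number of genes called then ranged from 98, without 6-3-A6 replicate 2, to 594. Hes1 (0.13 ± 0.11, adjusted p = 0.566), Rfng (0.10 ± 0.09, adjusted p = 0.602), Rbpj (-0.14 ± 0.07, adjusted p = 0.36), Heyl (-0.15 ± 0.14, adjusted p = 0.63) and Lfng (-0.09 ± 0.14, adjusted p = 0.774) had no called slope. None of the 9 genes is part of the score. In the same fit the receptor and ligand genes Notch4 (0.68, adjusted p = 0.0079), Jag2 (0.66, adjusted p = 0.0177) and Dll4 (0.69, adjusted p = 0.0287) had called slopes too, 3 of 8 tested.

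**Figure D4:**
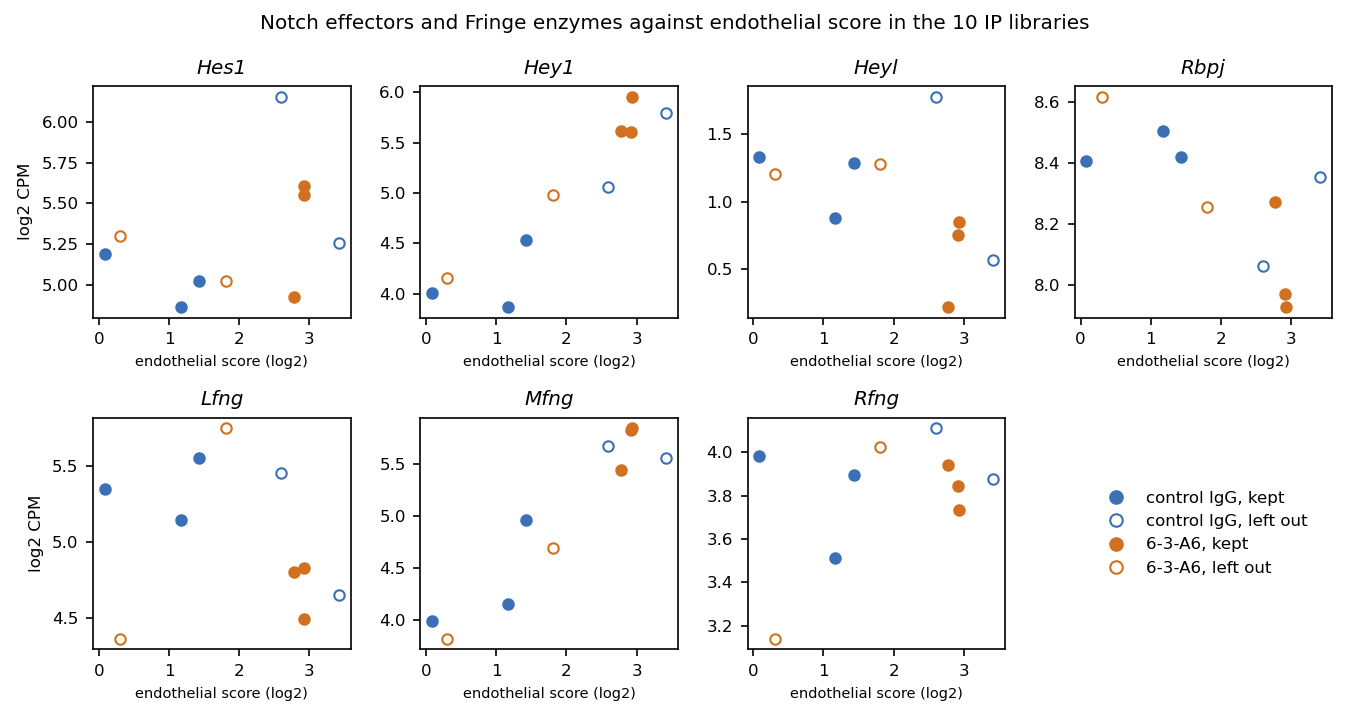
Log2 CPM of 7 genes (vertical axes, each with its own range) against the endothelial score (horizontal axis, log2) in the 10 IP libraries, blue for control IgG and orange for 6-3-A6, filled for the 6 kept libraries. Hey1 and Mfng climb with the score in both treatment groups, and the kept control libraries have scores of at most 1.43 against at least 2.78 in the kept 6-3-A6 libraries.

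Set against the endothelial markers themselves, Hey1 was less apart between the kept groups. Its log2 CPM lay below the mean of the endothelial markers by 2.57 ± 0.603 in the kept control IgG and by 2.07 ± 0.184 in the kept 6-3-A6 libraries (means -2.57 and -2.07, SD, n = 3), with ranges of -2.98 to -1.88 and -2.26 to -1.89 that overlap. For Mfng the means were -2.34 ± 0.382 and -2.09 ± 0.312, which overlap as well. Hes1 overlapped too (-1.68 ± 0.91 and -2.44 ± 0.468). For the other 4 genes the means were -1.36 ± 0.737 in control IgG and -3.09 ± 0.0749 in 6-3-A6 for Lfng, 1.74 ± 0.81 and 0.257 ± 0.163 for Rbpj, -5.54 ± 0.874 and -7.19 ± 0.408 for Heyl, and -2.91 ± 0.897 and -3.96 ± 0.151 for Rfng. Each of these 4 was lower in the kept 6-3-A6 libraries without overlap. The mean of the endothelial markers itself was 6.71 ± 0.815 log2 CPM in the kept control IgG and 7.80 ± 0.119 in the kept 6-3-A6 libraries, so that a gene at the same CPM in both, such as Rfng, comes out lower on this scale. Over all 10 IP libraries Hey1 lay at -2.62 ± 0.539 in control IgG and -2.06 ± 0.381 in 6-3-A6 (SD, n = 5 each). For Mfng these means were -2.4 ± 0.285 and -2.2 ± 0.431, and the groups overlapped for both genes.

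Across libraries Hey1 and Mfng ran together. Their log2 CPM correlated with a Pearson r of 0.911 over 20 libraries and 0.912 over the 10 IP libraries, which share the spread in endothelial content. Lfng and Rfng had an r of 0.80 over 20 and 0.596 over the 10 IP libraries. Across the pairs, Mfng had an r of -0.316 with Lfng and -0.266 with Rfng over 20 libraries, and of -0.154 and 0.519 over the 10 IP libraries. Hey1 had an r of -0.558 with Lfng and -0.533 with Rfng over 20 libraries, and of -0.321 and 0.388 over the 10 IP libraries. These are descriptions, and libraries of 1 tumor and 1 fraction are not independent points.

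The genes most like each of the 7 across the 20 libraries were named by the same measure. Hey1 was closest to Rhoj, Apln and She (r = 0.983 each), of which Apln encodes the peptide apelin. Mfng was closest to Chst1 (0.977), Angptl4 (0.976) and Ptp4a3 (0.971). Lfng went with Hexa (0.968), a subunit of lysosomal hexosaminidase, Lrrc25 (0.964) and Gusb (0.956), the lysosomal beta-glucuronidase. Rfng went with Ergic3 (0.961), Aup1 (0.959) and Cst3 (0.957). Hes1 had Tiprl (0.885), Nipsnap3b (0.88) and Hnrnpa0 (0.86), Heyl had Fam20a (0.859), Vdac3 (0.857) and Myl9 (0.855), and Rbpj had Cul2 (0.895), Serpinb2 (0.873) and Eps15 (0.859).

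The rest of the pathway gives a setting for these values. Of 8 receptors and ligands tested, 4 were higher in the IP and 0 lower, with Dll4 (log2 difference 4.00), Notch4, the target of the antibody (3.88), and Jag2 (3.21) at the top and a median of 1.27, against a median of -0.05 over all genes. Notch4 itself did not pass in the treatment comparison over 6 (0.78, adjusted p = 0.283) or 10 IP libraries (-0.12, adjusted p = 1). Of 4 endothelial Notch targets tested (median 1.81), Gja4 (3.24), the gap junction gene of arteries, Rnd1 (2.15) and Unc5b (1.48), a netrin receptor, were higher in the IP; Rnd1 differed by 0.69 between treatments over 6 libraries (adjusted p = 0.141) and by -1.08 over 10 (adjusted p = 1, edgeR). Nrarp of the same list and Hes5 of the other Hes family genes had 0 counts in all libraries, and only Hes6 of that family was tested (0.11, edgeR adjusted p = 0.644). The overlap of Nrarp and Hes5 with other genes was not checked either, so these counts are not read as absence of the transcripts.

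Of 16 nuclear cofactors and corepressors tested (median 0.155), 3 were higher in the IP, among them Kdm5a (0.87) and L3mbtl3 (0.84), both known as repressive partners on DNA, and 0 were lower. That share, 18.8%, is close to the 19.8% of all genes called higher. Of 15 enzymes that glycosylate or cut Notch, 6 were lower and 1 higher in the IP (median -0.27), where 21.4% of all genes were lower. The lowest were the xylosyltransferase gene Gxylt2 (-0.93) and the gamma-secretase subunit genes Aph1c (-0.79) and Aph1b (-0.53). In turnover and trafficking, 4 of 11 were higher and 1 lower (median 0.24), with the Deltex gene Dtx1 at 3.02, the ubiquitin ligase gene Nedd4 at 0.62 and Dtx4 at -0.575. Over the 6 kept IP libraries, all 10 IP libraries and the 10 input libraries 0 genes of these 6 lists were called between treatments by edgeR, where 4.61%, 0% and 0% of all genes were called.

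**Figure D5:**
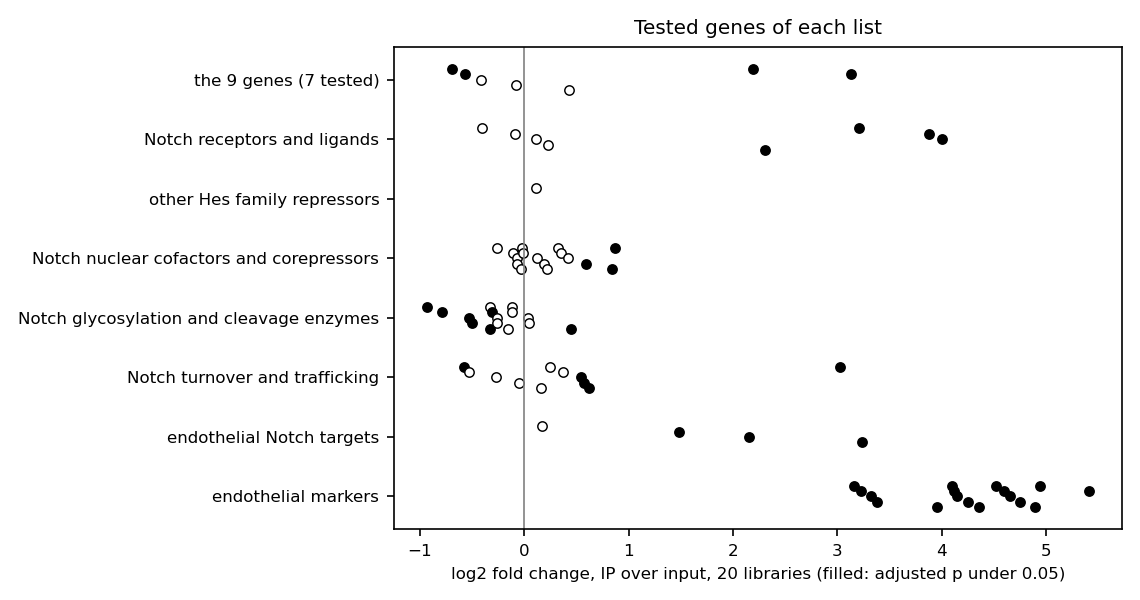
Each point is the log2 fold change of IP over input (horizontal axis, 20 libraries) of 1 tested gene, by list, filled where the adjusted p is under 0.05. Hey1 lies at 3.13 and Mfng at 2.19, the Notch receptors and ligands spread from -0.405 to 4.00, and the 17 endothelial markers lie between 3.16 and 5.41.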

How the data were processed

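RNA from 20 libraries (input and anti-HA IP of 5 tumors per treatment) was read as 100 bp single reads. Per the labels and methods, the authors aligned reads with STAR 2.7.4a and counted them with featureCounts (2.0.1 in the methods; 1.5.2 is also named in the processing notes); mm10 is named as the build (the processing notes also list GRCh38, a human build), while the coordinates in the count table are those of GRCm39. Strand setting and treatment of reads shared by overlapping genes are not given in the sources used here. The deposited counts are raw reads per gene. A second deposited table holds 6 IP libraries as a normalized signal (raw counts divided by 1 constant per library, in 100% of genes within 1e-06), and was used only to see which libraries were kept; its fold change and p-value columns by the authors were not used.

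Genes were filtered with filterByExpr (minimum count 10), scaled by TMM and tested with the quasi-likelihood test of edgeR 4.0.16 in R 4.3.3, Benjamini-Hochberg adjusted over all genes tested, with a threshold of 0.05. The SE was taken from the log2 difference and its F value, and 95% intervals use the t distribution with the degrees of freedom of that fit. CPM are TMM-scaled, log2 CPM use a prior count of 2, and DESeq2 1.42.0 was an alternative. In the fits over the 4 groups the tumors of both treatments shared 1 estimate of spread. The code was tested on simulated data. Total counts of 11881214 to 26728205 put 3 counts at 0.104 to 0.315 TMM-scaled CPM; such limits cover counting error only. Groups came from the sample titles. Input and IP of the same number came from 1 tumor, and their deviations correlated at -0.0626 to 0.73; same numbers across treatments (-0.318 to 0.377) share only a number. Replicates are separate tumors, and p-values of the treatment comparisons within 1 fraction measure the spread between these. Without the tumor as a block, the IP to input and interaction tests treat input and IP of a tumor as independent. Their p-values measure the spread of libraries within groups and not that of the IP to input ratio between tumors. No 2 replicates agreed within sampling noise (smallest median chi-square 2.24 against 0.455).

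The 9 genes and all gene lists were chosen with earlier results of these data known. The rule for other named genes was the 3 called genes of each pathway list with the largest IP to input difference, the 3 genes most correlated with each of the 7 that passed the filter over 20 libraries, and Notch4 and Rnd1. Hes6, the single gene tested of its list, and list members at 0 counts (Hes5, Nrarp, Itgam, Alas2) were named after their values were seen. 1 gene that this rule names is not reported here. Exon lengths and transcripts came from GENCODE M21 and were compared with BLAST 2.17.0, promoters from RefSeq on GRCm38.p6.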

Additional observations from a re-analysis of the deposited data

Results flagged for a closer look

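In 6 of 62 groups of 5 values a library or tumor stood far from the others of its group by Dixon's criterion, where chance marks about 1 group in 20. Hes1 reached 71.38 CPM in control IgG IP 1, against 28.96 to 38.18 in the other 4 control IP libraries. Lfng reached 53.79 CPM in 6-3-A6 IP 5, against 20.51 to 28.29. Mfng had 10.59 CPM in control IgG input 2, against 6.866 to 7.594. The log2 IP to input ratio of Rbpj was 0.398 in control IgG tumor 2, against -0.186 to -0.0358, and that of Lfng was 0.232 in 6-3-A6 tumor 4, against -0.862 to -0.642. In that tumor's input 38.2% of counts were mitochondrial, against 6.9% to 13.1% in the other 6-3-A6 inputs. In 0 genes did all tumors of 1 treatment move opposite to all tumors of the other between IP and input.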

How the results depend on the processing

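The number of genes called between IP and input moved from 5597 to 3347 with the tumors of the 6 kept IP libraries alone, where 2 of the 9 Notch genes were called instead of 4. With the replicate block, that is the tumor, 3249 genes were called within control IgG instead of 1649, 5554 within 6-3-A6 instead of 3811, and 5 Notch genes in each instead of 2 and 3. The block called Hes1 over the 20 libraries and called Hes1 and Lfng in both treatment groups and Rfng in control IgG, as given above. For the treatment comparison over 6 libraries no paired analysis was possible, because tumors of different treatments are not paired and share at most a number. Over those 6 libraries 646 genes were called, against 1251 with DESeq2, 1459 without the filter, and 0 genes and 0 Notch genes with the endothelial score as a covariate. Leaving out 1 library there gave 9 to 653 genes and 0 to 2 Notch genes: 9 without 6-3-A6 3, 161 without 6-3-A6 4, 188 without control IgG 4 and 345 without 6-3-A6 1. Leaving out 1 tumor gave 770 to 2322 genes within control IgG, with 770 without control IgG 3, 857 without control IgG 2, 1003 without control IgG 1 and 1059 without control IgG 5, where 2 to 3 Notch genes were called, against 3 to 5 over the 20 libraries and 2 to 3 within 6-3-A6. For the slope on endothelial content, 997 genes were called with DESeq2 instead of 511, and 98 to 594 without 1 library, 98 without 6-3-A6 2 and 321 without control IgG 4.

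Values near 0 changed sign, and the cause was not tested. Between IP and input this held for Rbpj without normalization factors (0.112) and, within control IgG, with DESeq2 (0.000501), DESeq2 size factors (0.000518) and no filter (0.0435). It held for the interaction of Hes1 (0.00117) and Rfng (0.0173) with the replicate block, for Mfng over 10 IP libraries with the score as a covariate (-0.0292) and for the slope of Lfng with the endothelial list alone as the score (0.0838). Without 1 tumor, Rbpj ranged from -0.125 to 0.0295 over 20 libraries, from -0.103 to 0.0584 within control IgG and from -0.24 to 0.0636 within 6-3-A6, where Maml1 ranged from -0.093 to 0.791. The interaction ranged from -0.132 to 0.0607 for Hes1, -0.229 to 0.0531 for Rbpj, -0.19 to 0.0282 for Lfng, -0.0309 to 0.788 for Mfng and -0.204 to 0.122 for Rfng. Over the 6 libraries Rfng ranged from -0.117 to 0.13, and over the 10 IP libraries Hes1 from -0.181 to 0.199. In input the ranges were -0.196 to 0.165 for Hes1, -0.269 to 0.0152 for Hey1, -0.125 to 0.295 for Heyl, -0.112 to 0.0826 for Rbpj, -0.4 to 0.129 for Mfng, -0.619 to -0.107 for Lfng (same sign throughout) and -0.318 to 0.0928 for Rfng. The slope ranged from -0.267 to 0.0233 for Lfng and from -0.00308 to 0.194 for Rfng.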
